A study of Mus musculus with 98 samples.

Results

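The comparison concerns DNA ends left by the RAG recombinase at Jk1 in mouse cells that lack 53BP1. Jk1 (gene Igkj1) is the first J segment of the immunoglobulin kappa light chain locus, 38 bp long in the RefSeq annotation of GRCm38.p6. Ends were read by HCoDES (hairpin capture of DNA end structures), in which a ligase for single-stranded DNA joins the strands of each end to one another, bisulfite treatment opens the resulting hairpin to PCR, and paired-end sequencing shows where each strand stopped. The members are 9 libraries out of the 49 of the series: all libraries of Lig4-/- 53BP1-/- line B and of Lig4-/- lines A and B in which the Jk1 break was amplified. The first group was Lig4-/- 53BP1-/- line B (cell number CJ 6), with 3 libraries. It was set against Lig4-/- line A (CJ 1) and Lig4-/- line B (CJ 7), with 3 libraries each.

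All 3 lines were Abelson-transformed pre-B cells arrested in G1, and all lacked DNA ligase IV (gene Lig4). Sample titles give 48 h for each of them, and all were sequenced in run set 4. The lines therefore differ in 53BP1 (gene Trp53bp1) as far as the labels go, except that the titles of Lig4-/- line B also carry the tag shNT, which is not explained. The letter B names a different line in each genotype, so line B of one is not paired with line B of the other. There is only 1 line without 53BP1 at Jk1, and whatever makes it differ apart from 53BP1 cannot be told apart from its genotype. A further line without 53BP1, line C, was read at other breaks only. The tables hold no measure of Trp53bp1 or Lig4 against which the genotypes could be checked.

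RAG cuts at the border of each gene segment and leaves a hairpin-sealed coding end and a blunt signal end. Non-homologous end joining opens and joins coding ends, with ligase IV as its ligase, so in Lig4-/- cells broken ends persist and their structure can be read. 53BP1 is a chromatin-bound DNA damage response protein known for holding back resection, the removal of nucleotides from a broken end, which starts on the strand whose 5' end lies at the break and leaves a 3' overhang. The histone variant H2AX, which is phosphorylated in chromatin around breaks and helps to keep 53BP1 there, was removed in other lines of the series.

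The deposited tables list end structures and the reads of each. A structure is given by the loss from each strand, the 5'-ending and the 3'-ending one, in nucleotides (nt), counted from a break that was placed at the lowest position listed. Blunt ends have lost the same number from both strands, a 3' overhang has lost more from the 5'-ending strand, and a 5' overhang more from the 3'-ending strand. Below, "a 4-nt 3' overhang at 6" means that the 5'-ending strand was 6 nt short and that the 3'-ending strand protruded by 4 nt. The tables held 258051 reads of 53BP1-deficient line B, 315274 of Lig4-/- line A and 304805 of Lig4-/- line B. Each pools its 3 libraries, so no spread between libraries can be given and the line is the replicate. The labels do not say whether the libraries of a line come from separate cultures. The tables do not say whether the ends are coding or signal ends, and a coding end whose hairpin was not yet opened would be read as if nothing had been lost. Losses beyond the amplified window are not seen: the largest loss from the 5'-ending strand was 179 nt in 53BP1-deficient line B, 181 nt in Lig4-/- line A and 171 nt in Lig4-/- line B.

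With 1 line against 2, an exact permutation test over lines cannot give a two-sided p below 0.333. Other measures were therefore used. The first was Fisher's exact test, two-sided, applied to the reads of each pair of tables, adjusted by Benjamini-Hochberg over 108 pairs in 54 classes of end, and a class was called only when the 53BP1-deficient line lay outside both Lig4-/- lines and both adjusted p-values passed 0.05. That test compares tables and not genotypes, and reads of PCR products that carry no molecular identifiers cannot be counted as separate molecules. At this depth 84 of the 108 p-values were too small to be represented and were written as 0. The second and stricter measure was whether the gap to the nearer Lig4-/- line exceeded the gap between the Lig4-/- lines. Of the 54 classes, 49 were called and 47 of these also exceeded the gap between the lines. Classes described below as higher or lower are among those 47 unless an exception is stated. Shares add up to 100%, so a class that takes a larger share lowers the others.

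In 53BP1-deficient cells most ends had lost more than 100 nt. Ends with 100 nt or more lost from the 5'-ending strand, a limit chosen after seeing the data, made up 67.0% of reads in 53BP1-deficient line B (exact 95% interval 66.8 to 67.2), against 9.92% in Lig4-/- line A (9.81 to 10.02) and 25.9% in Lig4-/- line B (25.8 to 26.1). These intervals, like the others given here, cover counting error only. This left 41.1 percentage points to the nearer Lig4-/- line, and the Lig4-/- lines were 16.0 points apart. Intermediate losses of 10 to 99 nt held 17.6% of reads in 53BP1-deficient line B, 22.5% in Lig4-/- line A and 28.5% in Lig4-/- line B, and were not tested as a class. Resected ends, defined by a 5'-strand loss of at least 10 nt, made up 84.6% of all reads in 53BP1-deficient line B, 32.4% in Lig4-/- line A and 54.4% in Lig4-/- line B. Among them the deeper class held 79.2% in 53BP1-deficient line B, 30.6% in Lig4-/- line A and 47.7% in Lig4-/- line B. The resected share rested in part on the leading structures. When the 10 leading structures were removed from every table, it was 91.6% in 53BP1-deficient line B, 67.2% in Lig4-/- line A and 83.9% in Lig4-/- line B, which left 7.68 points to the nearer line with 16.8 points between the Lig4-/- lines, so the stricter measure was no longer met. With each structure counted once, whatever its reads, 92.3% of structures were resected in the mutant line, 87.4% in Lig4-/- line A and 87.3% in Lig4-/- line B.

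Losses in the mutant line were thus spread toward the far side of the window. A 5'-strand loss of 120 to 139 nt was found in 28.8% of reads in 53BP1-deficient line B, against 4.62% in Lig4-/- line A and 9.36% in Lig4-/- line B. From 140 to 159 nt the shares were 25.0% in 53BP1-deficient line B, against 3.06% and 11.5% in Lig4-/- lines A and B. The order was turned round nearer the break. From 10 to 19 nt the 53BP1-deficient line had 1.36% of reads, against 9.93% in Lig4-/- line A and 11.2% in Lig4-/- line B. From 40 to 59 nt the mutant value of 3.01% lay between 2.36% in line A and 5.01% in line B. From 60 nt on every bin was above both Lig4-/- lines: losses of 60 to 79 nt held 3.89% in 53BP1-deficient line B, 1.53% in Lig4-/- line A and 1.63% in Lig4-/- line B, and losses of 80 to 99 nt held 7.51%, 1.85% and 1.67% in the same order. These bins were not tested.

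**Figure D1:**
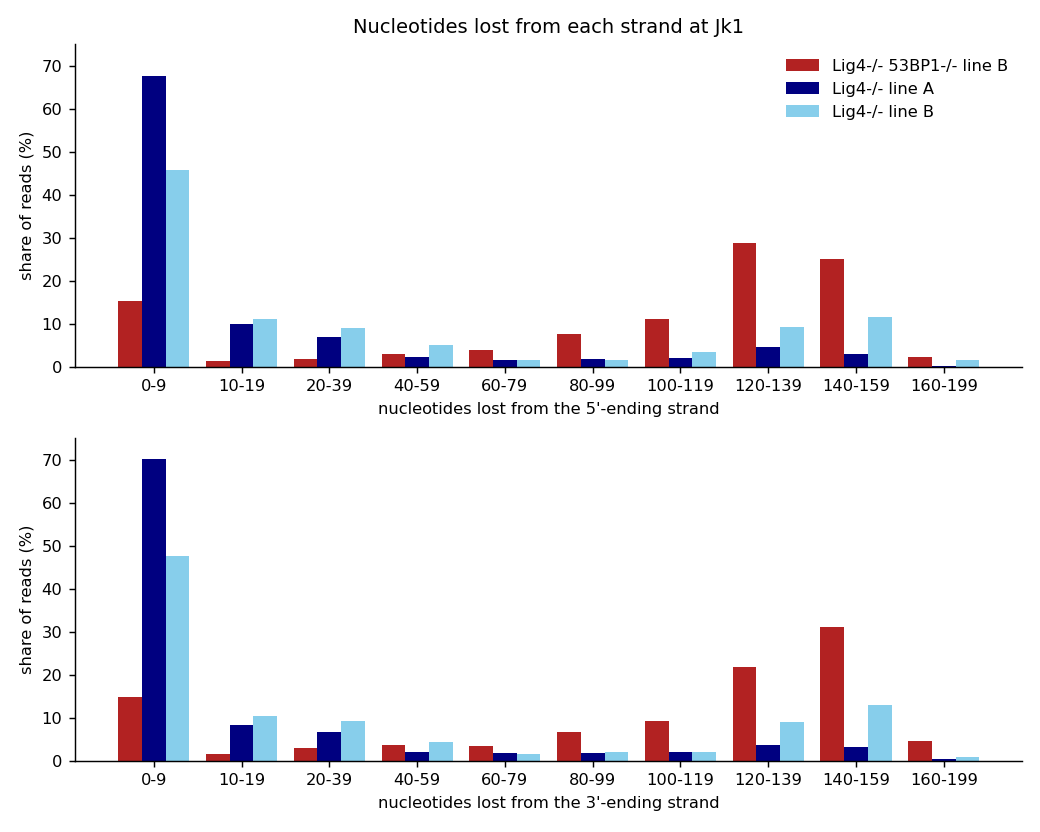
Share of reads (%) by the number of nucleotides lost from the 5'-ending strand (top) and from the 3'-ending strand (bottom) in the 3 Jk1 tables, in bins that are 10 nt wide up to 19 nt, 20 nt wide up to 159 nt and wider after that. Bars are pooled tables with no spread between libraries; 53BP1-deficient line B has its highest bars from 120 to 159 nt on both strands and both Lig4-/- lines have theirs from 0 to 9 nt.

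The strands were lost together. Ends whose strands had both lost at least 10 nt held 84.2% of reads in 53BP1-deficient line B, 28.6% in Lig4-/- line A and 50.9% in Lig4-/- line B. Ends with such a loss on the 5'-ending strand alone, which carry a 3' overhang, held 0.423% in the 53BP1-deficient line, against 3.86% and 3.53% in Lig4-/- lines A and B. Ends with it on the 3'-ending strand alone held 0.912%, against 1.42% and 1.65% in Lig4-/- lines A and B. As shares of all reads, losses from either strand alone were thus lower without 53BP1. Ends with under 10 nt lost from the 5'-ending strand were also fewer there. Of these, 2354 of 39684 reads in 53BP1-deficient line B had lost at least 10 nt from the 3'-ending strand. The counts were 4480 of 213059 in Lig4-/- line A and 5015 of 139017 in Lig4-/- line B. That part was therefore higher without 53BP1, and it was not tested. The median loss from the 3'-ending strand of resected ends was 138 nt in 53BP1-deficient line B, against 33 nt in Lig4-/- line A and 78 nt in Lig4-/- line B. For the 5'-ending strand of the same ends the medians were 134 nt, against 36 nt in line A and 83 nt in line B. In each table these 2 medians were less than 6 nt apart, which does not give the difference between the strands of single ends. In 53BP1-deficient line B the median 5' overhang of resected ends was 8 nt and the median 3' overhang 17 nt. Both were 4 nt in each Lig4-/- line.

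**Figure D2:**
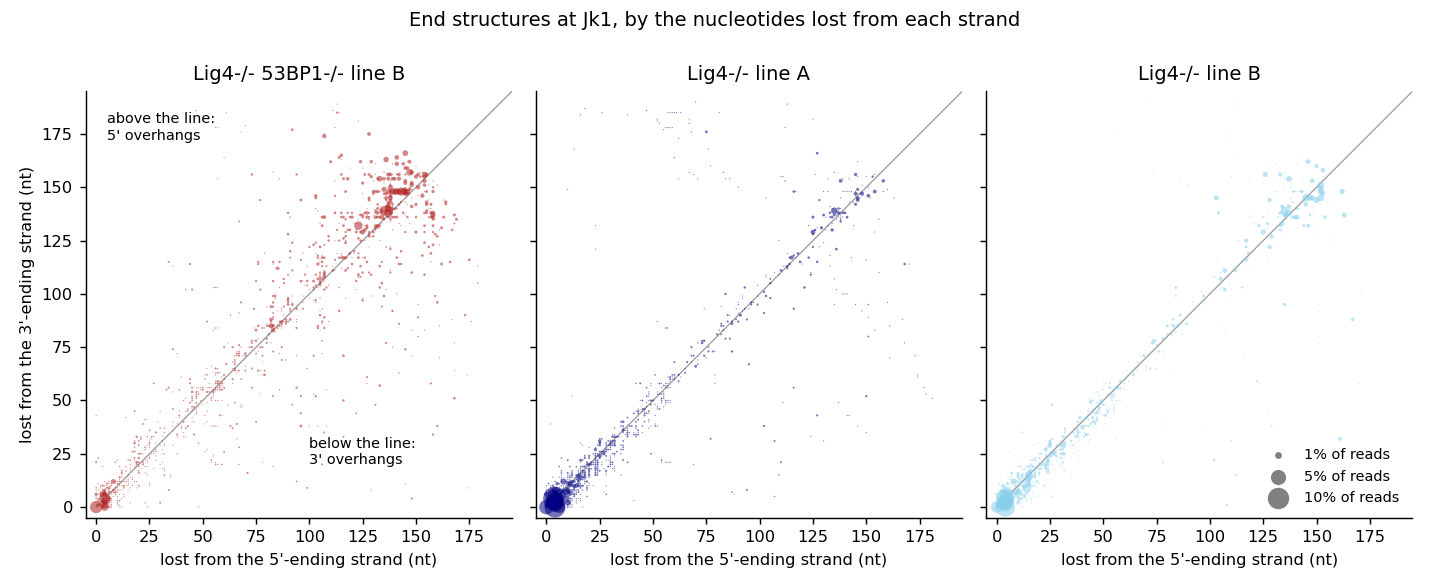
Each circle is an end structure, placed by the nucleotides lost from the 5'-ending strand (horizontal axis, nt) and from the 3'-ending strand (vertical axis, nt), with an area that grows with its share of reads in the table named above the panel. Structures on the diagonal are blunt; 53BP1-deficient line B has a dense field of circles beyond 100 nt that spreads to both sides of the diagonal, while the reads of both Lig4-/- lines gather near the origin.

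Resected ends also differed in form. Over all ends the share of 5' overhangs was 63.3% without 53BP1, against 20.4% and 26.0% in Lig4-/- lines A and B, a comparison that mixes how many ends were resected with what resected ends look like. Among resected ends, 5' overhangs made up 70.5% of reads in 53BP1-deficient line B (70.3 to 70.7), against 34.0% in Lig4-/- line A (33.7 to 34.3) and 35.5% in Lig4-/- line B (35.2 to 35.7). Although the Lig4-/- lines were 22.0 percentage points apart in how many ends were resected, they were only 1.495 points apart in this composition. The gap from the 53BP1-deficient line to the nearer of them was 35.0 points. Conversely 3' overhangs made up 26.2% of resected ends in the mutant line, against 57.7% and 56.3% in Lig4-/- lines A and B. Blunt ends were lower as well, at 3.33% against 8.32% and 8.24% in Lig4-/- lines A and B. Counting each structure once made these differences smaller: 5' overhangs were then 51.8% of resected structures in 53BP1-deficient line B, 38.2% in Lig4-/- line A and 36.7% in Lig4-/- line B. Of all structures counted once, 5' overhangs were 52.0% in the mutant line, 40.7% in Lig4-/- line A and 38.8% in Lig4-/- line B, and 3' overhangs were 43.6%, 52.8% and 55.9% in the same order.

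The excess of 5' overhangs lay in those of 5 nt or more. The shortest, of 1 to 4 nt, held 22.7% of resected ends in 53BP1-deficient line B, which lay between 23.4% in Lig4-/- line A and 19.5% in Lig4-/- line B and was not called. Those of 5 to 9 nt held 19.2% in 53BP1-deficient line B, against 5.37% in Lig4-/- line A and 8.76% in Lig4-/- line B. From 10 to 19 nt the shares were 15.7% without 53BP1, against 3.43% in Lig4-/- line A and 3.98% in Lig4-/- line B. Of 20 nt or more there were 12.9%, against 1.74% and 3.26% in Lig4-/- lines A and B. The difference thus began at 5 nt, and the median 5' overhang of resected ends was 8 nt in the 53BP1-deficient line and 4 nt in both Lig4-/- lines.

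For 3' overhangs the direction depended on their length. Short ones were lower without 53BP1: those of 1 to 4 nt held 6.20% of resected ends in 53BP1-deficient line B, against 33.6% in Lig4-/- line A and 33.8% in Lig4-/- line B. Those of 5 to 9 nt held 3.27%, against 17.2% in Lig4-/- line A and 16.0% in Lig4-/- line B. Longer ones were higher: 3' overhangs of 10 to 19 nt held 4.90%, against 3.68% in Lig4-/- line A and 3.33% in Lig4-/- line B. Those of 20 nt or more held 11.8%, against 3.22% and 3.21%, values of the Lig4-/- lines that differed by 0.010 points. The median 3' overhang of resected ends was 17 nt in the mutant line and 4 nt in each Lig4-/- line. Resected ends of the 53BP1-deficient line therefore held fewer short 3' overhangs and more long overhangs of either strand.

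A 3' overhang cannot be longer than the loss of its 5'-ending strand, so deeper ends have room for longer overhangs. The comparison was therefore repeated among ends with 100 nt or more lost. In that group 5' overhangs made up 71.9% in 53BP1-deficient line B, against 51.7% in Lig4-/- line A and 44.6% in Lig4-/- line B. Those of 5 to 9 nt held 19.2%, against 2.77% and 10.9% in Lig4-/- lines A and B. Their gap to the nearer line, 8.23 points, barely exceeded the 8.16 points between the Lig4-/- lines. Those of 10 to 19 nt held 16.8%, against 7.72% and 7.57%, and those of 20 nt or more 12.1%, against 2.97% and 6.19%. The long 3' overhangs of 20 nt or more remained higher there, at 12.97% against 7.24% in Lig4-/- line A and 6.39% in Lig4-/- line B. Short 3' overhangs of 1 to 4 nt remained lower, at 3.89% against 21.5% in Lig4-/- line A and 25.7% in Lig4-/- line B. Not every class kept its difference. For 3' overhangs of 10 to 19 nt the values were 4.85%, against 5.14% in Lig4-/- line A and 5.85% in Lig4-/- line B, a gap smaller than that between the lines (adjusted p = 0.0310 against line A, Fisher's exact test). Blunt ends held 2.95%, against 3.08% in Lig4-/- line A and 4.61% in Lig4-/- line B, and were not called (adjusted p = 0.227 against line A, Fisher's exact test). For 5' overhangs of 1 to 4 nt the 53BP1-deficient value of 23.8% lay between 38.3% in line A and 19.96% in line B.

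**Figure D3:**
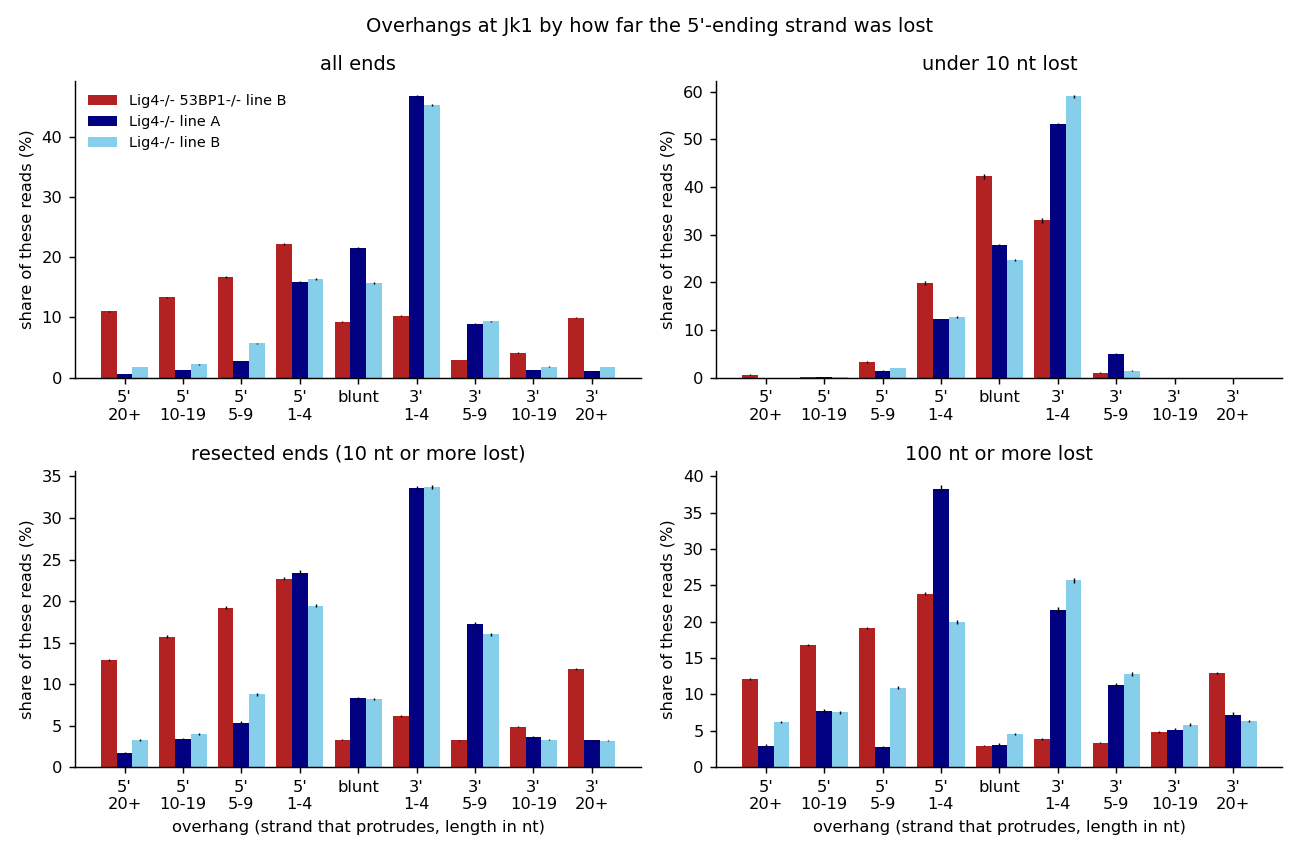
Share of reads (%) in each class of overhang among all ends, ends with under 10 nt lost, resected ends and ends with 100 nt or more lost, for the 3 Jk1 tables; error bars are exact 95% intervals of counting error only. Among resected ends the bars of 53BP1-deficient line B are above both Lig4-/- lines for 5' overhangs of 5 nt or more and for 3' overhangs of 10 nt or more, and below both for blunt ends and 3' overhangs under 10 nt.

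A preferred stopping point of the 3'-ending strand stood out in the mutant table. The 3'-ending strand stopped at 148 nt in 8.92% of the reads of 53BP1-deficient line B (8.81 to 9.03), in 0.414% of Lig4-/- line A (0.392 to 0.437) and in 1.78% of Lig4-/- line B (1.73 to 1.83). It was the most used 3'-strand position of the mutant table, above the strand with nothing lost at 4.92%. The next positions were 138 nt, with 4.29% in 53BP1-deficient line B against 0.657% in Lig4-/- line A and 1.34% in Lig4-/- line B, and 136 nt, with 3.94% against 0.522% and 1.34% in Lig4-/- lines A and B. Because 148 nt was picked for its share in the mutant table, no test is given.

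At that position the 5'-ending strand varied while the 3'-ending strand stayed in place. In 53BP1-deficient line B, 18 structures shared the position, the leading one held 16.4% of its reads, and 95.9% of its reads were 5' overhangs. In Lig4-/- line A, 12 structures shared it and 31.6% of the reads were 5' overhangs, while Lig4-/- line B had 11 structures there and 22.2% of reads as 5' overhangs. Most of the mutant reads formed an unbroken series. All 10 structures with 5' overhangs of 2 to 11 nt, whose 5'-ending strand stopped at 137 to 146 nt, were present, each with 535 to 3775 reads, and together they held 7.79% of reads. The same 10 structures held 0.0063% of reads in Lig4-/- line A, where 6 had any reads and the highest had 6. In Lig4-/- line B they held 0.393%, with over 3 reads in 3 of them and the highest at 723. That series was singled out after its values were seen.

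The 5'-ending strand had no far position of that weight. Its leading far position in 53BP1-deficient line B was 137 nt, with 4.76% of reads, against 0.389% in Lig4-/- line A and 1.98% in Lig4-/- line B. At 138 nt the shares were 3.53% against 0.423% and 0.011%, and at 145 nt 3.27% against 0.674% and 1.56%, in Lig4-/- lines A and B. Lig4-/- line B had a far position that the mutant line and Lig4-/- line A used little. A position at 152 nt, among the 5 most used by the 5'-ending strand in Lig4-/- line B, held 0.106% in 53BP1-deficient line B, 0.0006% in Lig4-/- line A and 3.36% in Lig4-/- line B. Which far positions were used therefore differed between lines of the same genotype as well.

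**Figure D4:**
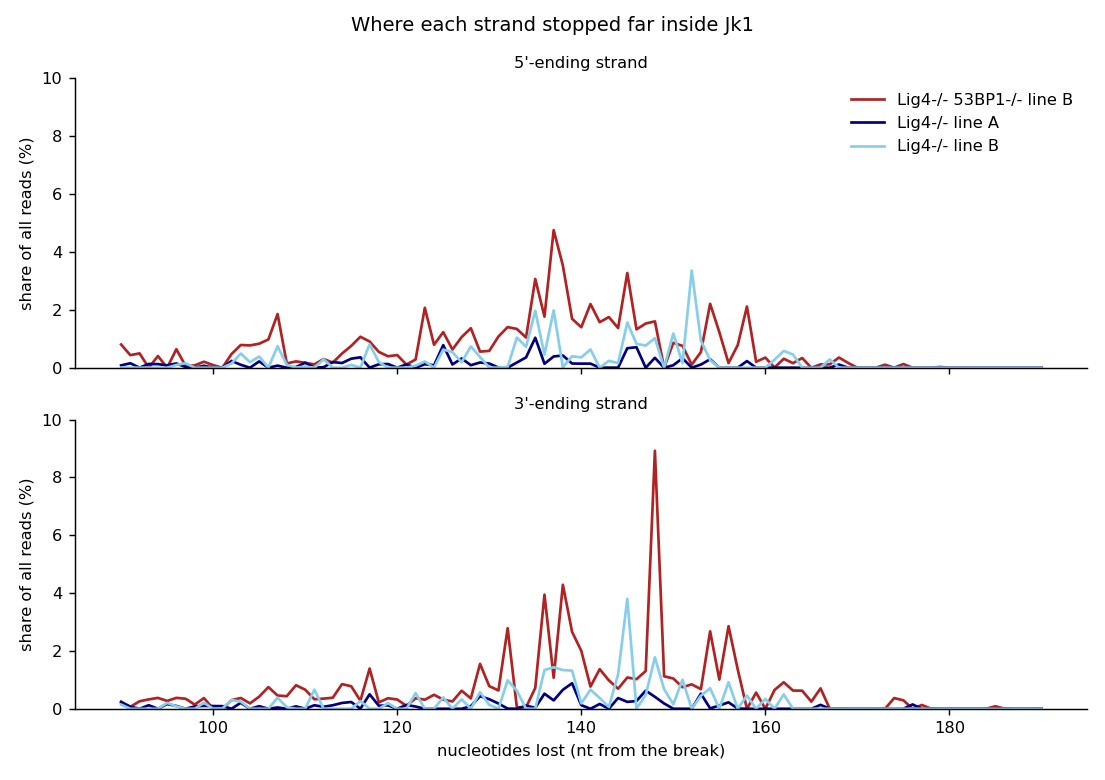
Share of all reads (%) that stop at each position from 90 nt inwards, for the 5'-ending strand (top) and the 3'-ending strand (bottom), with a line for each of the 3 Jk1 tables. The 53BP1-deficient line has its highest peak at 148 nt on the 3'-ending strand, at 8.92%, while the peaks of Lig4-/- line B, at 152 nt on the 5'-ending strand and 145 nt on the 3'-ending strand, are 3.36% and 3.80%.

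The reads of 53BP1-deficient cells were spread over more structures. The mutant table listed 1070 structures, against 745 in Lig4-/- line A and 678 in Lig4-/- line B, although it held the fewest reads. It took 89 structures to hold 50% of its reads, against 9 in Lig4-/- line A and 25 in Lig4-/- line B. Its 10 most abundant structures held 16.9% of reads, against 51.7% in Lig4-/- line A and 36.8% in Lig4-/- line B. Much of this spread was also present in the H2AX-deficient lines described below. There 66 structures in line 5 and 55 in line 8 held 50% of reads, and the leading 10 held 17.5% and 21.5%. Those lines listed 685 and 600 structures, from fewer reads. Among ends with 100 nt or more lost, 64 of 480 structures held 50% of the reads of 53BP1-deficient line B, against 17 of 172 in line A and 18 of 186 in line B. Near the break the numbers were close: among ends with under 10 nt lost, 4 structures held 50% in the mutant line, 5 in Lig4-/- line A and 4 in Lig4-/- line B.

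Much of the mutant table was made of structures that neither Lig4-/- table listed. These were 593 of the 1070 structures of 53BP1-deficient line B and held 45.5% of its reads. In Lig4-/- lines A and B, 6.70% and 9.81% of reads lay in structures listed in that table alone. These shares are not like for like. Each Lig4-/- line has a line of its own genotype beside it and the mutant line has none. In pairs of tables, 33.8% and 34.7% of mutant structures were shared with Lig4-/- lines A and B. The shared structures made up 48.6% and 54.7% of those lines. The Lig4-/- lines shared 54.8% of the structures of line A and 60.2% of those of line B with each other. Of the reads in the 593 structures, 76.0% had lost 100 nt or more and 61.7% were 5' overhangs. Over all reads of 53BP1-deficient line B these shares were 67.0% and 63.3%. Near the break most structures were shared: with under 10 nt lost, 70 structures were common to 53BP1-deficient line B and Lig4-/- line A, which is 85.4% of the 82 of the mutant line and 74.5% of the 94 of line A. Beyond 100 nt, 94 were common to both, or 19.6% of 480 and 54.7% of 172. The 2 Lig4-/- lines themselves shared 68 structures beyond 100 nt, or 39.5% of 172 in line A and 36.6% of 186 in line B. Deep structures thus differed between any 2 lines, and a structure with few reads may be missed in any table, since each lists only structures with 2 reads or more.

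Of 1608 structures in the 3 tables, 980 had 100 reads or more in all and were compared by size, without a test. In 53BP1-deficient line B, 457 structures (46.6%) had at least 2 times their share in each Lig4-/- line, a share of 0 being set to 3 reads of that table, and 185 (18.9%) had at most 1/2 of it. The remaining 338 lay between or went different ways. Of the 457 higher structures 344 had no reads in either Lig4-/- table, and 74 of the 185 lower ones had none in the mutant table. A structure that is in 1 table alone passes the read minimum only by being high there, so the balance rests on them: among the 227 structures with reads in all 3 tables, 29 were higher and 111 were lower. The number of lower structures also depended on the Lig4-/- line: it was 316 without line A and 345 without line B.

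The structures on each side fell in different places. Beyond 100 nt, 294 of 407 structures were higher without 53BP1 and 4 were lower. From 10 to 99 nt, 158 of 504 were higher and 148 lower, and under 10 nt 5 of 69 were higher and 33 lower. Overhang classes differed too. Of the 3' overhangs of 1 to 4 nt, 35 of 205 were higher and 81 lower, whereas of the 3' overhangs of 20 nt or more 88 of 115 were higher and 0 were lower. For 5' overhangs of 10 to 19 nt 72 of 86 were higher and 1 was lower, and for those of 20 nt or more 65 of 75 were higher and 0 lower. All of these shares can be set against the 46.6% higher and 18.9% lower over all compared structures, which include them. Like that balance, the higher counts rest on structures missing from the Lig4-/- tables. Among the 227 structures with reads in all 3 tables, 21 of 46 beyond 100 nt were higher and 2 lower, 5 of 122 from 10 to 99 nt were higher and 78 lower, and 3 of 59 under 10 nt were higher and 31 lower. In this smaller set 4 of 77 short 3' overhangs of 1 to 4 nt were higher and 47 lower. Of the longest overhangs, with 20 nt or more, the set held only 2 structures for each strand, none of them higher or lower. Among its 5' overhangs of 10 to 19 nt, 2 of 9 were higher and 1 lower.

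The largest rises among single structures, picked by size and without a test, were 5' overhangs of 1 to 9 nt far inside. The 9-nt 5' overhang at 123 held 1.55% of reads in 53BP1-deficient line B, 0.0041% in Lig4-/- line A and 0.216% in Lig4-/- line B. The 5-nt 5' overhang at 143, part of the series that ends at 148 nt, held 1.46%, against 0.001% in Lig4-/- line A and 0.237% in Lig4-/- line B. For the 4-nt 5' overhang at 144 the shares were 1.00%, against 0 and 0.0007% in Lig4-/- lines A and B. In the same series, the 7-nt 5' overhang at 141 had 2471 reads in the mutant table and 2 reads in each Lig4-/- table. The 1-nt 5' overhang at 137 held 1.59%, against 0.265% and 0.898%, and the 3-nt 5' overhang at 137 held 1.01%, against 0.122% in Lig4-/- line A and 0.0026% in Lig4-/- line B. Of these 6 structures, which were chosen as the largest rises, the 1-nt overhang at 137 had the highest share in both Lig4-/- lines.

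The most abundant resected structure of the mutant table was of that shared kind too. A 4-nt 5' overhang at 135 held 1.89% in 53BP1-deficient line B, 0.882% in Lig4-/- line A and 1.32% in Lig4-/- line B, which is under 2 times the higher Lig4-/- line. The leading 5' overhangs of 10 nt or more were in the mutant table alone. The 10-nt 5' overhang at 147 had 2423 reads (0.939%) and the 21-nt 5' overhang at 145 had 1822 reads (0.706%) in 53BP1-deficient line B, and neither was listed in a Lig4-/- table. Likewise the 21-nt 3' overhang at 158, which led the 3' overhangs of 20 nt or more, had 1451 reads (0.562%) and none in either Lig4-/- table. The 12-nt 3' overhang at 155, which led those of 10 to 19 nt, had 639 reads in 53BP1-deficient line B, none in Lig4-/- line A and 2 in Lig4-/- line B. The 3' overhangs of 5 to 9 nt, a class that was lower without 53BP1, were led in the mutant table by the 7-nt 3' overhang at 153, with 968 reads (0.375%) and none in either Lig4-/- table. In the H2AX-deficient lines described below, the 21-nt 5' overhang at 145 held 0.599% of reads in line 8. The 10-nt 5' overhang at 147 held 0.0018% in line 5, and these leading 3' overhangs had no reads in either.

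Ranked in percentage points, the falls near the break were concentrated on ends that had lost 4 nt from the 5'-ending strand. That position was the most used in both Lig4-/- lines. Ends at 4 nt held 7.68% of all reads in 53BP1-deficient line B, against 40.4% in Lig4-/- line A and 30.2% in Lig4-/- line B. In proportion the fall was larger at 6 nt, where the shares of all reads were 0.929%, 10.3% and 5.37% in the same order. The 4-nt 3' overhang at 4, whose 3'-ending strand was intact, held 1.30% of reads, against 9.66% in Lig4-/- line A and 8.25% in Lig4-/- line B. The blunt end at 4 held 2.78%, against 12.1% and 7.49% in Lig4-/- lines A and B. The 2-nt 3' overhang at 4 held 0.732%, against 5.11% and 4.89%, and the 1-nt 3' overhang at 4 held 0.898%, against 6.29% and 3.49%. The 3-nt 3' overhang at 4 and the 2-nt 3' overhang at 6 completed the 6 largest falls, at 1.04% against 4.47% and 3.79%, and at 0.348% against 2.53% and 1.79%. All 6 lay outside both Lig4-/- lines, since they were chosen to.

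Ends without any loss behaved differently. They held 3.29% of all reads in 53BP1-deficient line B, which lay between 4.69% in Lig4-/- line A and 2.92% in Lig4-/- line B, and they were the most abundant structure of the mutant table. Among the ends with under 10 nt lost they therefore held a larger part: 21.4% in 53BP1-deficient line B (21.0 to 21.8), against 6.95% in Lig4-/- line A (6.84 to 7.05) and 6.39% in Lig4-/- line B (6.26 to 6.52). Ends at 4 nt held 49.95% of the same ends, against 59.7% in Lig4-/- line A and 66.1% in Lig4-/- line B. Ends at 6 nt held 6.04%, against 15.2% in Lig4-/- line A and 11.8% in Lig4-/- line B. The order of the leading positions thus changed. After 4 nt the mutant line had 0 nt as its second position, and each Lig4-/- line had 6 nt.

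Overhangs near the break were shifted away from 3' overhangs. Among ends with under 10 nt lost, 3' overhangs made up 33.95% in 53BP1-deficient line B (33.5 to 34.4), against 58.2% in Lig4-/- line A (57.9 to 58.4) and 60.5% in Lig4-/- line B (60.2 to 60.7). Blunt ends made up 42.2%, against 27.9% and 24.7%, and 5' overhangs made up 23.8%, against 13.9% and 14.8%, in Lig4-/- lines A and B. Without the ends that had lost nothing, which are blunt, 3' overhangs made up 43.2%, against 62.5% in Lig4-/- line A and 64.6% in Lig4-/- line B. With each structure counted once in place of its reads, however, 3' overhangs made up 36.6% of near structures in the mutant line, against 34.0% in Lig4-/- line A and 37.2% in Lig4-/- line B. Counted that way, the mutant line lay between the Lig4-/- lines. Leaving out the most abundant structure of each table gave 43.2% in 53BP1-deficient line B, 70.9% in Lig4-/- line A and 51.7% in Lig4-/- line B, where 8.54 points to the nearer line did not exceed 19.2 points between the Lig4-/- lines.

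Among ends at 4 nt alone, 3' overhangs did not all differ the same way. Blunt ends made up 36.2% of them in 53BP1-deficient line B, 30.1% in Lig4-/- line A and 24.9% in Lig4-/- line B. The 4-nt 3' overhang made up 16.9%, against 23.9% in Lig4-/- line A and 27.4% in Lig4-/- line B. The 2-nt 3' overhang made up 9.53% in 53BP1-deficient line B, 12.6% in Lig4-/- line A and 16.2% in Lig4-/- line B. The 3-nt 3' overhang was above both, at 13.5% in the mutant line, 11.1% in Lig4-/- line A and 12.6% in Lig4-/- line B. The 1-nt 3' overhang made up 11.7%, which lay between 15.6% in line A and 11.6% in line B. None of the tables listed a 1-nt 5' overhang at this position, while the 2-nt 5' overhang made up 7.25%, against 2.79% in Lig4-/- line A and 3.82% in Lig4-/- line B. These shares were not tested.

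**Figure D5:**
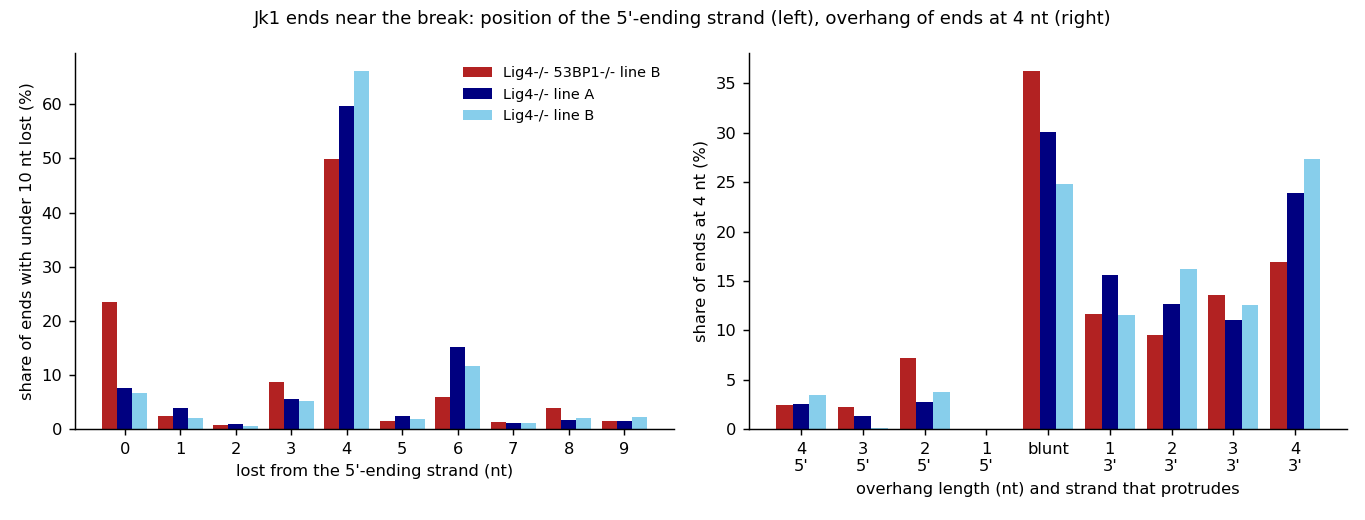
Left, share (%) of the ends with under 10 nt lost that stop at each position of the 5'-ending strand; right, share (%) of the ends at 4 nt with each overhang, in the 3 Jk1 tables. The bar of 53BP1-deficient line B at 0 nt is 23.5%, against 7.63% and 6.64% in Lig4-/- lines A and B, and its bars at 4 and 6 nt are below both.

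Loss of H2AX was studied at the same break in Lig4-/- H2AX-/- lines 5 and 8. Their resected shares enclosed that of the 53BP1-deficient line, while the form of their ends differed from it in part. The resected share of 53BP1-deficient line B, 84.6%, lay between 87.8% in line 5 and 83.9% in line 8. Deep loss was common to them too: ends with 100 nt or more lost held 67.0% without 53BP1, against 56.2% in line 5 and 64.5% in line 8. That gap of 2.57 points to line 8 did not exceed the 8.26 points between the H2AX-deficient lines. Line 5 has no time in its labels and line 8 was sequenced in run set 2, so neither is fully matched to the 53BP1-deficient line. Some differences from the Lig4-/- lines were in the H2AX-deficient lines too. Of resected ends, 5' overhangs were 57.3% in line 5 and 61.1% in line 8, against 34.0% and 35.5% in Lig4-/- lines A and B. Ends at 4 nt held 6.35% and 9.52% of all reads, against 40.4% and 30.2%, in the same order. Of the ends with under 10 nt lost, those without any loss made up 18.8% and 10.4%, against 6.95% and 6.39%. Of the same 54 classes 24 were called between 53BP1-deficient and H2AX-deficient lines with a gap above that between the H2AX-deficient lines. Among resected ends, 5' overhangs of 5 to 9 nt held 19.2% without 53BP1, against 14.1% in H2AX-deficient line 5 and 12.9% in line 8. Those of 10 to 19 nt held 15.7%, against 3.50% in line 5 and 10.2% in line 8. Their gap of 5.55 points did not exceed the 6.67 points between the H2AX-deficient lines. Those of 20 nt or more held 12.9%, against 7.44% in line 5 and 4.24% in line 8. Likewise 11.8% of resected ends carried 3' overhangs at least 20 nt long, against 6.35% in line 5 and 6.50% in line 8. Short overhangs were lower without 53BP1 than without H2AX. The 5' overhangs of 1 to 4 nt held 22.7% of resected ends, against 32.2% in line 5 and 33.8% in line 8, and the 3' overhangs of 1 to 4 nt held 6.20%, against 12.6% and 16.2%. The 3'-strand position at 148 nt held 0.849% of reads in H2AX-deficient line 5 and 4.71% in line 8, with 8.92% in 53BP1-deficient line B, and 100% and 86.7% of the H2AX-deficient reads there were 5' overhangs.

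The same 3 lines were also read at a RAG break in a chromosomal recombination substrate, where resection in 53BP1-deficient line B was likewise deep. Ends with 100 nt or more lost held 84.3% of reads there in 53BP1-deficient line B, against 17.5% in Lig4-/- line A and 15.9% in Lig4-/- line B. Among resected ends 5' overhangs made up 60.9%, against 20.9% in Lig4-/- line A and 29.6% in Lig4-/- line B. Those of 10 to 19 nt held 12.9%, against 0.884% and 2.46%, and those of 20 nt or more 9.80%, against 0.535% and 2.30%, in Lig4-/- lines A and B. Of the ends with under 10 nt lost, ends without any loss made up 54.6% at the substrate in the mutant line, against 12.1% in Lig4-/- line A and 9.43% in Lig4-/- line B. The 5' overhangs of 1 to 4 nt, which were not called among resected ends of Jk1, were higher at the substrate, at 22.1% against 14.1% in Lig4-/- line A and 16.0% in Lig4-/- line B. Whether the 2 breaks differ was not tested, and the values given for both rest on the same 53BP1-deficient line. Line C without 53BP1, which was also read at the substrate, was not used here.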

How the data were processed

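Genomic DNA was read by HCoDES on an Illumina MiSeq, per the labels' protocols. The deposited values are read counts per end structure, not normalised, in tables that pool the 3 libraries of a line; aligner, read filters and genome build: not given in the sources used here. Genomic coordinates were left out for that reason. The deposited overhang length and position are whole numbers taken as nt. Position 2 was taken as the break from the data, and positive overhangs as 3' overhangs, because 99.2% of 307425 reads of the KpnI control, an enzyme that leaves a 4-nt 3' overhang, have the value 4. Lig4-/- line B had 2 identical tables and was used once.

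Samples were grouped by genotype, line and break from the labels. Shares of reads, exact Clopper-Pearson 95% intervals and Fisher's exact tests with Benjamini-Hochberg adjustment used scipy 1.17.1 and numpy 2.4.6 on tables read with pandas 2.3.3, under Python 3.11.15; matplotlib 3.10.9 drew the figures. An end counts as resected from a 5'-strand loss of 10 nt. Structures with 100 reads or more over the 3 tables were compared at 2-fold. Named structures are the 6 of highest share in each table, the 6 largest rises and 6 largest falls in percentage points against the mean of the Lig4-/- lines among structures outside both, and the leading structure of each overhang class in the mutant table; positions named are the 5 of highest share in each table. The 3'-strand position at 148 nt and its structures were added after their values were seen. The calculation was tested on simulated data in which both Lig4-/- lines were drawn from the same shares. That check therefore does not cover differences between lines. Members, classes and lists were chosen with earlier results of these data known. Alternatives changed the weight of a structure, the read minimum, the most abundant structures, the resection limit, the strand, the definition of blunt, the fold and the Lig4-/- lines used.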

Additional observations from a re-analysis of the deposited data

Results flagged for a closer look

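For 4 classes of end the 53BP1-deficient line lay on opposite sides of the Lig4-/- lines at Jk1 and at the recombination substrate, in every pair of tables. The difference between the breaks was not tested, and the same 3 lines were used at both. Among resected ends, 3' overhangs of 10 to 19 nt were 1.40 percentage points above the mean of the Lig4-/- lines at Jk1 (4.90% against 3.68% and 3.33% in Lig4-/- lines A and B) and differed by -2.93 points at the substrate (7.58% against 12.2% and 8.82%). Among ends with under 10 nt lost, 5' overhangs of 5 to 9 nt differed by 1.48 points at Jk1 (3.23% against 1.49% and 2.00%) and by -1.40 points at the substrate (2.77% against 3.55% and 4.79%). Among ends with 100 nt or more lost, 3' overhangs of 10 to 19 nt differed by -0.643 points at Jk1 (4.85% against 5.14% and 5.85%) and by 6.44 points at the substrate (7.98% against 0.0639% and 3.01%). In the same ends 3' overhangs of 20 nt or more differed by 6.15 points at Jk1 (12.97% against 7.24% and 6.39%) and by -4.70 points at the substrate (11.9% against 20.6% and 12.6%). Each class missed the stricter measure at one of the breaks. At the substrate the first, second and last named classes differed by -1.23, -0.785 and -0.682 points from the nearer Lig4-/- line, with 3.39, 1.23 and 8.03 points between the Lig4-/- lines. At Jk1 the remaining class differed by -0.288 points from the nearer line, with 0.709 between them.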

How the results depend on the processing

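All settings tried for the resected share (10), the 3' and 5' overhang shares (7 each) and the share of 5' overhangs among resected ends (6) kept their direction and stayed past the threshold. The sizes moved more. Counting each structure once gave differences of 4.99 percentage points for the resected share (41.2 by reads), -10.8 for 3' overhangs (-30.7), 12.2 for 5' overhangs (40.1) and 14.4 for 5' overhangs among resected ends (35.8). With the 10 leading structures removed from every table the resected share differed by 16.1 points, and its gap to the nearer line, 7.68, fell below that between the Lig4-/- lines, 16.8. The share of 3' overhangs among ends with under 10 nt lost, -25.4 points, kept its direction in 5 settings, from -18.1 to -26.5 points. Without the most abundant structure of each table its gap of 8.54 points was below the 19.2 between the Lig4-/- lines, and with each structure counted once it turned to 0.959 points and its test did not pass. With 500 reads or more, 102 structures were higher and 105 lower of 312. With reads in all 3 tables, a setting chosen after seeing the data, 29 were higher and 111 lower of 227. Both limits test fewer structures. Leaving out Lig4-/- line A gave 500 higher and 316 lower structures, and leaving out Lig4-/- line B gave 493 and 345, since a structure then had to pass against 1 line only. No paired analysis was possible because each table pools its replicates and the lines of the 2 genotypes are different lines. The depth leaves counting error small; the number of lines, 1 without 53BP1 and 2 of Lig4-/-, limits what can be said.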
